A study of Danio rerio with 15 samples.

Results

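Axin2 and Nkd1 are inhibitors that Wnt signalling switches on against itself. Axin2 is a scaffold of the complex that marks beta-catenin for destruction, and Nkd1 binds Dishevelled, the protein that relays the signal from the Wnt receptor. In the early zebrafish embryo, maternal Wnt signalling sets up the dorsal organizer and zygotic Wnt signalling then patterns the ventral and lateral margin.

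The genes described here are those whose transcript level set both mutants that lack axin2 apart from every embryo that carries it. They were chosen from the measured values. Counts were divided by the library total and scaled to CPM, the usual unit of relative abundance, and the 5 group means of log2(CPM + 0.5) were sorted. A gene was kept where the largest gap between neighbouring means was at least 0.5 and parted axin2-/-;nkd1-/- and axin2-/- from nkd1-/-, TL and Tu. No sample of one side could overlap the other, and the highest group mean had to reach 2 CPM. This gave 73 of 32520 genes, 43 higher and 30 lower in the embryos without axin2. The same rule found 540 genes that set axin2-/-;nkd1-/- and nkd1-/- apart from the other groups, and 586 that set axin2-/- and TL apart.

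Each sample held RNA of 10 zebrafish embryos taken at 50% epiboly, when gastrulation begins. There were 3 samples each of axin2-/-;nkd1-/- double mutants, axin2-/-, nkd1-/-, and TL and Tu, strains without either mutation. Both single mutants were made with Cas9, axin2-/- in the TL strain and nkd1-/- in the Tu strain, and the double mutants came from crossing them. The samples of a group shared their parents and were collected on different days, so p-values rest on the variation among collection days within a single family, and family and genotype cannot be told apart. Library totals ran from 44098543 to 68135442 counts. In pools of whole embryos, fewer cells of a type and less RNA per cell cannot be told apart. The gastrula genes tbxta (brachyury, a mesoderm transcription factor) and mixl1 (a mesendoderm transcription factor) were present in all groups, with lowest group means of 527 and 230 CPM.

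The transcripts of the targeted genes were present in all mutants. axin2 had 99.7, 110 and 104 CPM in axin2-/-;nkd1-/- embryos and 101, 99.1 and 85.4 CPM in axin2-/- embryos. It had 81.1, 92.7 and 82.6 CPM in nkd1-/- embryos, 72.4, 72.9 and 62.6 CPM in TL and 58.3, 61.6 and 66.9 CPM in Tu. The axin2 transcript was thus not lost in axin2-/- embryos. It was higher there than in TL by 0.48 ± 0.12 (log2 fold change ± SE, adjusted p = 0.00809, edgeR quasi-likelihood test). Between axin2-/-;nkd1-/- and nkd1-/- embryos the difference was 0.29 ± 0.12 (adjusted p = 0.128), and it passed the threshold without nkd1-/- replicate 2 (adjusted p = 0.0347). The nkd1 transcript averaged 23.0 ± 2.55 CPM in axin2-/-;nkd1-/-, 20.5 ± 6.03 CPM in axin2-/-, 21.4 ± 2.77 CPM in nkd1-/-, 15.3 ± 1.20 CPM in TL and 12.3 ± 0.852 CPM in Tu embryos (SD, n = 3 each). The lesions are not given in the sources used here, and a transcript can persist with a frameshift, so these levels neither bear out nor contradict the labels. axin2 itself was not among the 73 genes.

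**Figure D1:**
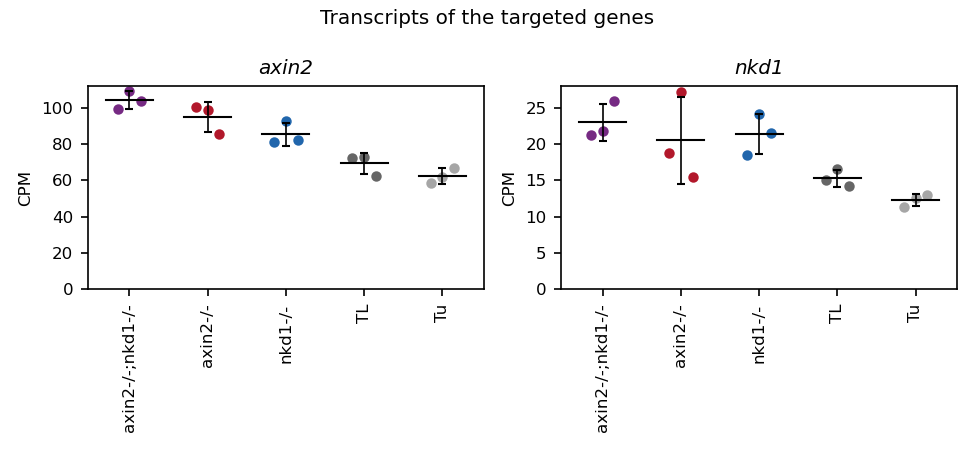
CPM of axin2 and nkd1 in each sample, with the group mean and SD (n = 3). The axin2 transcript averaged 104 CPM in axin2-/-;nkd1-/- and 95.0 CPM in axin2-/- embryos, against 85.4 CPM in nkd1-/-, 69.3 CPM in TL and 62.3 CPM in Tu embryos.

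The gap, and the difference of either axin2 mutant from its own comparison group, chose the 73 genes and are given as descriptions with no test. The median gap was 0.93 for the 43 higher genes and 0.89 for the 30 lower genes on the log2 scale, and the largest were 3.61 and 2.05. Gaps of at least 1 were seen for 18 of the higher and 13 of the lower genes. Most of the higher genes had low levels: 30 of 43 stayed under 10 CPM in their highest group, as did 11 of the 30 lower genes. The typical SD within a group was 0.25 for the higher and 0.29 for the lower genes (median, log2). The axin2-/-;nkd1-/- mean lay above the axin2-/- mean for 22 of the 43 higher genes and 15 of the 30 lower genes. Just inside the threshold were tsen15, a subunit of the tRNA splicing endonuclease, and KPNA6, an importin that carries proteins into the nucleus, both with a gap of 0.51. Just outside it were si:dkey-166k12.6 (0.49) and NME7 (0.47), a nucleoside diphosphate kinase family member, both lower without axin2.

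**Figure D2:**
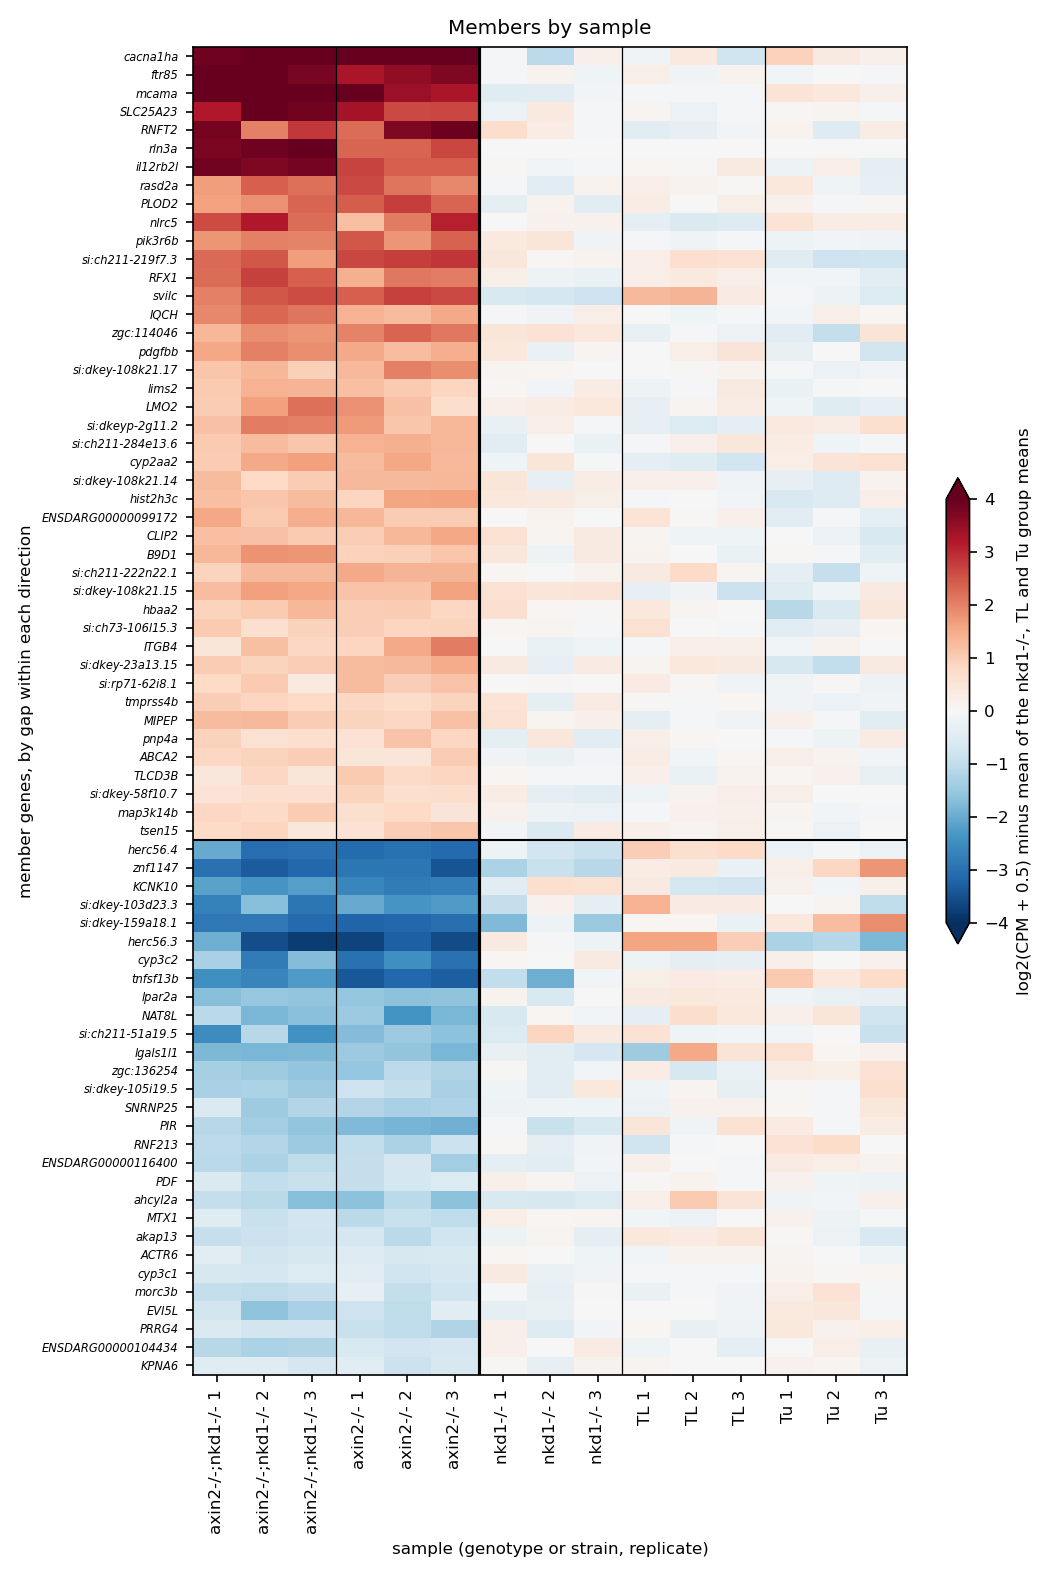
log2(CPM + 0.5) of 72 of the 73 genes (rows, by gap within each direction) in the 15 samples (columns), minus the mean of the nkd1-/-, TL and Tu group means, with colours saturating at a difference of 4. The 43 higher genes form the upper block and 29 of the 30 lower genes the lower block, and the thick line parts the 6 libraries without axin2 from the other 9.

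Among secreted ligands and their receptors, rln3a and il12rb2l were higher without axin2 and tnfsf13b and lpar2a were lower. rln3a encodes a relaxin-family peptide hormone. It had 6.24, 6.85 and 7.89 CPM in axin2-/-;nkd1-/- embryos and 2.01, 2.03 and 2.66 CPM in axin2-/- embryos, and not 1 count in any of the other 9 libraries. Taking 3 counts per library as the floor, the mean of the lower mutant, 2.23 CPM, was at least 35.3-fold higher than the highest floor, 0.0633 CPM. il12rb2l is named for similarity to a receptor chain of the cytokine interleukin 12. It had 21.7, 19.8 and 21.2 CPM in axin2-/-;nkd1-/- and 9.37, 7.39 and 7.39 CPM in axin2-/- embryos, against 0.660 to 1.43 CPM in the other 9 libraries. For both genes all 3 double-mutant libraries lay above all 3 axin2-/- libraries. tnfsf13b encodes BAFF, a ligand of the TNF family that B cells need in mammals. It had 0.826, 0.680 and 1.01 CPM in axin2-/-;nkd1-/- and 0.194, 0.329 and 0.244 CPM in axin2-/- embryos. The other groups spread widely above this, with 3.17, 1.40 and 6.22 CPM in nkd1-/-, 8.05, 8.67 and 8.43 CPM in TL and 14.4, 9.29 and 11.7 CPM in Tu. Its gap of 1.44 became 1.90 without nkd1-/- replicate 2 and 0.99 without nkd1-/- replicate 3. lpar2a, a receptor for lysophosphatidic acid, was uniform on the low side, with 3.69 to 4.26 CPM over the 6 libraries without axin2, against 8.51 to 17.9 CPM in the other 9. pdgfbb, a platelet-derived growth factor chain, averaged 3.73 CPM in axin2-/-;nkd1-/- and 2.67 CPM in axin2-/- embryos, against 0.804 CPM in nkd1-/-, 0.953 CPM in TL and 0.462 CPM in Tu.

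Of the genes for signalling inside the cell, rasd2a and pik3r6b had the widest gaps. rasd2a is a small GTPase related to Ras. It had 7.09, 12.2 and 10.6 CPM in axin2-/-;nkd1-/- and 14.7, 10.0 and 8.68 CPM in axin2-/- embryos, against 1.24 to 2.72 CPM in the other 9 libraries, a 5.42-fold difference of means. pik3r6b, a regulatory subunit of a phosphoinositide 3-kinase, had 1.47 to 1.84 CPM in axin2-/-;nkd1-/- and 1.46 to 2.73 CPM in axin2-/- embryos, against 0.0294 to 0.306 CPM in nkd1-/-, 0.0190 to 0.0557 CPM in TL and 0 to 0.0379 CPM in Tu. Narrow gaps were seen for map3k14b, the kinase NIK of the noncanonical NF-kappaB pathway (0.53, higher), and akap13, a protein kinase anchor (0.59, lower).

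Channels, carriers and adhesion molecules included the largest gap of all. cacna1ha encodes the pore subunit of a T-type voltage-gated calcium channel. It had 22.5, 30.5 and 29.8 CPM in axin2-/-;nkd1-/- and 26.8, 24.0 and 27.1 CPM in axin2-/- embryos. In nkd1-/- embryos it had 0.966, 0.249 and 1.29 CPM, in TL 0.892, 1.52 and 0.389 CPM and in Tu 2.45, 1.46 and 1.26 CPM. The mean of the 6 libraries without axin2 was 23.0-fold that of the other 9, and the double and single mutants overlapped. mcama encodes a cell adhesion molecule of the immunoglobulin family. Its levels were 21.7, 27.8 and 23.2 CPM in axin2-/-;nkd1-/- and 16.8, 8.97 and 7.75 CPM in axin2-/- embryos, against 0.118 to 0.759 CPM in the other 9 libraries. SLC25A23, a mitochondrial carrier of ATP-magnesium and phosphate, had 4.87, 8.98 and 8.03 CPM in axin2-/-;nkd1-/- and 5.38, 3.16 and 3.23 CPM in axin2-/- embryos, and at most 0.268 CPM elsewhere. The one channel gene on the lower side with a wide gap was KCNK10, a background potassium channel. It had 0.383, 0.249 and 0.343 CPM in axin2-/-;nkd1-/- and 0.135, 0.0616 and 0.0885 CPM in axin2-/- embryos, against 1.77 to 5.66 CPM in the other 9 libraries. Its name is also carried by another gene ID, as are those of RFX1 and TLCD3B. ITGB4, the integrin chain of hemidesmosomes, and lims2, a focal adhesion adaptor, were higher with gaps of 0.69 and 0.94.

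**Figure D3:**
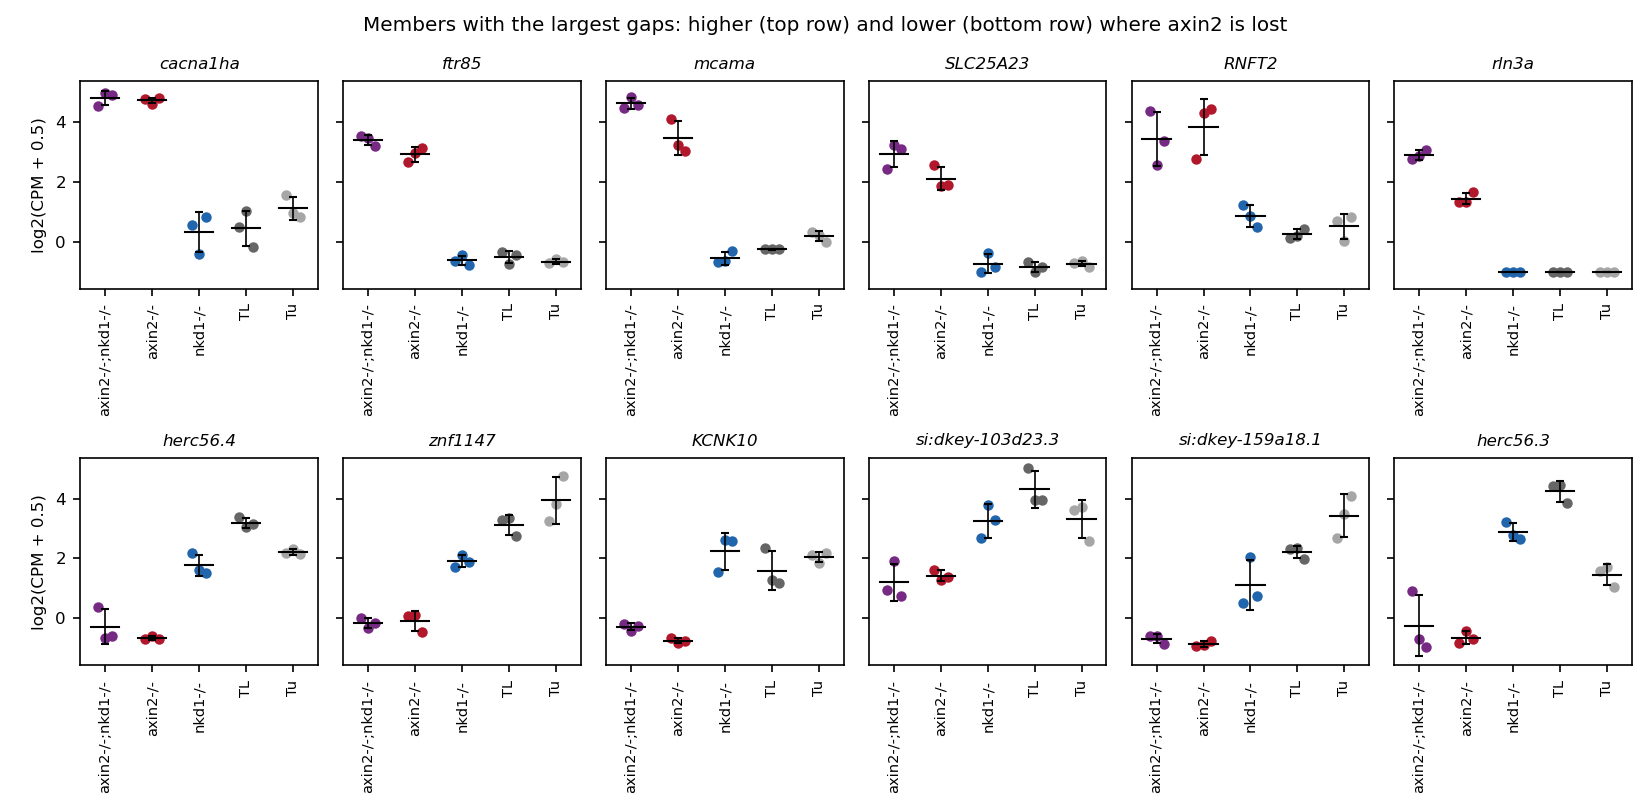
log2(CPM + 0.5) of the 6 genes with the largest gaps in each direction, by sample, with group mean and SD (n = 3). In the top row cacna1ha, ftr85, mcama, SLC25A23, RNFT2 and rln3a stand higher in both mutants that lack axin2, and in the bottom row herc56.4, znf1147, KCNK10, si:dkey-103d23.3, si:dkey-159a18.1 and herc56.3 stand lower.

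Several of the wide gaps belonged to fish gene families with many copies, and to ubiquitin ligases and innate immune genes. ftr85 belongs to the finTRIM family, a TRIM-related family that is expanded in fish. It had 11.1, 10.6 and 8.64 CPM in axin2-/-;nkd1-/- and 5.79, 7.23 and 8.32 CPM in axin2-/- embryos, against 0.0881 to 0.279 CPM in the other 9 libraries, a 53.2-fold difference of means. RNFT2, a membrane protein with a RING domain, was high but uneven, with 19.96, 5.42 and 9.76 CPM in axin2-/-;nkd1-/- and 6.29, 19.0 and 21.3 CPM in axin2-/- embryos, against 0.512 to 1.85 CPM elsewhere. nlrc5, whose mammalian counterpart activates MHC class I genes, had 6.26 to 12.9 CPM in axin2-/-;nkd1-/- and 2.81 to 11.9 CPM in axin2-/- embryos, against 0.475 to 1.60 CPM elsewhere. On the lower side stood the neighbours herc56.4 and herc56.3, named for the HERC ubiquitin ligases. herc56.4 had 0.806, 0.136 and 0.162 CPM in axin2-/-;nkd1-/- and 0.116, 0.164 and 0.111 CPM in axin2-/- embryos, against 2.35 to 4.02 CPM in nkd1-/-, 7.76 to 9.83 CPM in TL and 3.92 to 4.51 CPM in Tu. herc56.3 had 1.39, 0.113 and 0.0180 CPM in axin2-/-;nkd1-/- and 0.0581, 0.246 and 0.111 CPM in axin2-/- embryos. In the other groups it had 5.78 to 8.89 CPM in nkd1-/-, 13.9 to 21.2 CPM in TL and 1.58 to 2.79 CPM in Tu. Double-mutant replicate 1 was the highest of the 6 low libraries for both genes. The tool and the use of strand in counting are not stated, so members of such families may share reads, and their values are uncertain.

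Enzymes of metabolism were found on both sides. PLOD2, a lysyl hydroxylase that modifies collagen, had 2.01 to 3.59 CPM in axin2-/-;nkd1-/- and 3.63 to 5.11 CPM in axin2-/- embryos, against 0.117 to 0.502 CPM elsewhere. cyp3c2, a cytochrome P450 enzyme, had 1.13, 0.0680 and 0.686 CPM in axin2-/-;nkd1-/- and 0, 0.226 and 0 CPM in axin2-/- embryos, against 2.60 to 4.64 CPM in the other 9 libraries. Its relative and neighbour cyp3c1 was lower by less, with group means of 2.37 CPM in axin2-/-;nkd1-/- and 2.39 CPM in axin2-/-, against 3.95 CPM in nkd1-/-, 3.74 CPM in TL and 4.17 CPM in Tu. The pair may share reads. NAT8L, which makes N-acetylaspartate, averaged 1.93 CPM in axin2-/-;nkd1-/- and 1.40 CPM in axin2-/-, against 5.44 CPM in nkd1-/-, 7.92 CPM in TL and 6.61 CPM in Tu. The purine nucleoside phosphorylase gene pnp4a differed by little at a high level: 363, 295 and 311 CPM in axin2-/-;nkd1-/- and 290, 428 and 342 CPM in axin2-/-, against 151, 262 and 145 CPM in nkd1-/-, 229, 206 and 191 CPM in TL and 182, 167 and 243 CPM in Tu. Its groups did not overlap, though axin2-/- replicate 1 and nkd1-/- replicate 2 came near each other.

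Genes for nuclear proteins included a histone gene, some of its neighbours, and transcription factors. hist2h3c, a histone H3 gene, had 56.4, 52.9 and 59.4 CPM in axin2-/-;nkd1-/- and 44.5, 73.0 and 74.7 CPM in axin2-/-, against 15.7 to 32.6 CPM elsewhere. zgc:114046 and si:dkey-108k21.15 lie within 4 genes of it, and si:dkey-108k21.14 and si:dkey-108k21.17 carry the name of the same clone. All 5 were higher without axin2. Histone genes come in near-identical copies that may share reads, so these counts may not be independent. RFX1, a transcription factor of the family that controls cilia genes, averaged 4.87 CPM in axin2-/-;nkd1-/- and 3.12 CPM in axin2-/-, against 0.428 CPM in nkd1-/-, 0.694 CPM in TL and 0.340 CPM in Tu. LMO2, a partner of blood transcription factors, was higher with a gap of 0.94. znf1147, a zinc finger gene, was lower, with 0.295 to 0.504 CPM in axin2-/-;nkd1-/- and 0.221 to 0.575 CPM in axin2-/-. It had 2.78 to 3.81 CPM in nkd1-/-, 6.15 to 9.58 CPM in TL and 8.90 to 26.6 CPM in Tu. morc3b, a MORC-family ATPase of chromatin, averaged 120 CPM in axin2-/-;nkd1-/- and 146 CPM in axin2-/-, against 218 CPM in nkd1-/-, 211 CPM in TL and 283 CPM in Tu.

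Genes named only after a clone, with no known role, had wide gaps as well. si:ch211-219f7.3 averaged 6.16 CPM in axin2-/-;nkd1-/- and 9.49 CPM in axin2-/-, against 1.21 CPM in nkd1-/-, 1.61 CPM in TL and 0.403 CPM in Tu. si:dkey-159a18.1 averaged 0.125 CPM in axin2-/-;nkd1-/- and 0.0497 CPM in axin2-/-, against 1.92 CPM in nkd1-/-, 4.18 CPM in TL and 11.1 CPM in Tu. Its lowest library, axin2-/- replicate 1, held 1 count, under the floor of 3 counts, so its low side is uncertain. si:dkey-103d23.3 averaged 1.95 CPM in axin2-/-;nkd1-/- and 2.19 CPM in axin2-/-, against 9.46 CPM in nkd1-/-, 20.6 CPM in TL and 10.0 CPM in Tu. TL replicate 1 had the highest level of the last of these, 31.8 CPM. si:ch211-51a19.5 had a gap of 1.29. lgals1l1, a galectin, was close to absent without axin2, with at most 0.0201 CPM in axin2-/-;nkd1-/- and 0.155 CPM in axin2-/-, but TL replicate 1 was also low at 0.167 CPM.

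The position of the genes was not used to choose them. By gene name and order in the RefSeq annotation of GRCz12tu, which is not the build of the counts, 60 of the 73 could be placed on a chromosome. Of these, 18 lay on chromosome 3, which carries axin2, or 30% of those placed. Of all genes tested, 15039 could be placed and 4.89% of them lay on that chromosome. The share was 11 of 35 among the higher genes, 7 of 25 among the lower genes, and 10 of 27 among genes with a gap of at least 1. Other chromosomes held more than their share too: chromosome 25 held 8 (13.3%, beside 3.29% of the genes tested and placed), including 5 with the histone gene and its neighbours, chromosome 5 held 7 (11.7% beside 5.75%) and chromosome 18 held 5 (8.33% beside 3.11%). Chromosome 7, which carries nkd1, held 2 (3.33% beside 5.67%). All 18 lay on the same side of axin2 in gene order, the side that holds most of the chromosome: axin2 is number 1951 of 2153. The nearest was hbaa2, an alpha globin gene, 22 genes away. 10 of the 18 lay within 500 genes of axin2, among them lpar2a at 64, rasd2a at 124, SNRNP25 (a minor spliceosome protein) at 214, cyp3c2 at 297, cacna1ha at 334 and svilc at 357 genes. That window is a large part of the chromosome, and the share of all tested genes in it was not counted. No clustering near axin2 is therefore read from this count. Both kinds of embryos without axin2 inherit the chromosome on which the mutation was made, so the loss of axin2 and other differences carried on that chromosome cannot be told apart.

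**Figure D4:**
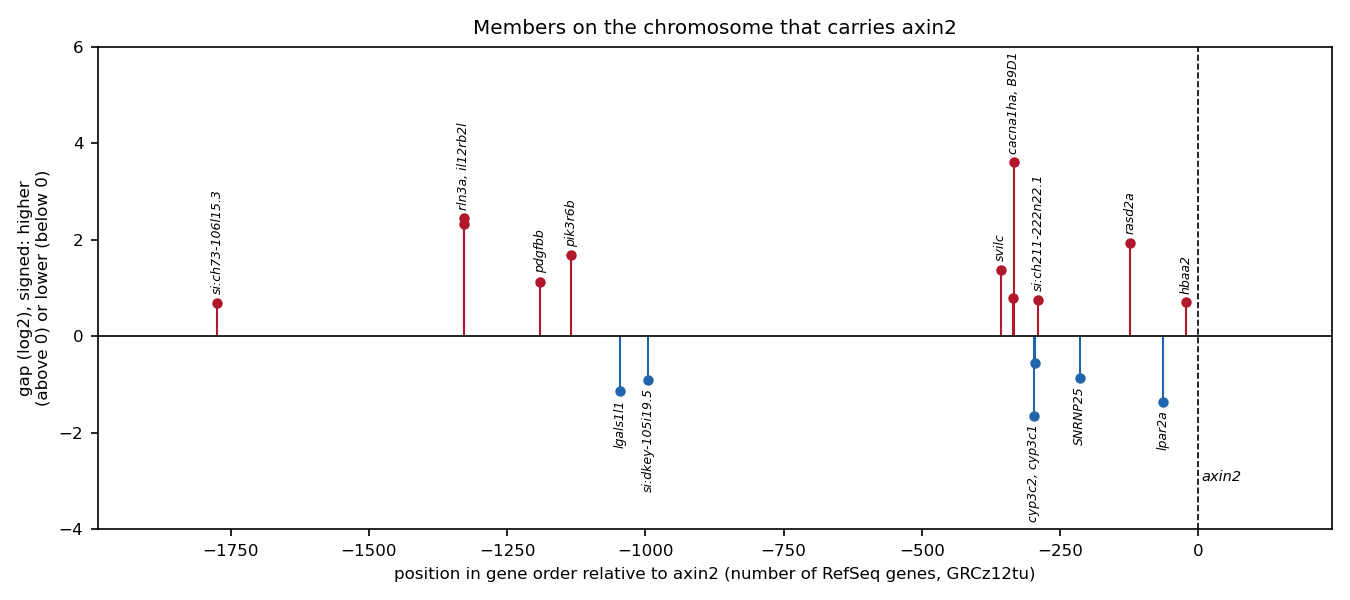
17 of the 18 genes placed on the chromosome of axin2, by the number of RefSeq genes between each and axin2 (x axis, axin2 at 0) and by gap (y axis, log2, above 0 where higher and below 0 where lower without axin2). They run from 1774 to 22 genes away, with 10 within 500 genes.

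Some of the 73 genes were neighbours. Within 20 genes of each other in gene order stood 11 pairs, of which 9 shared their direction. Some pairs share a gene or may share reads, so the pairs are not independent. Such pairs were not counted among all genes tested, so no clustering is read from the 11. rln3a and il12rb2l are adjacent, as are B9D1 and cacna1ha, and herc56.4 and herc56.3. B9D1, a protein of the ciliary transition zone, averaged 6.93 CPM in axin2-/-;nkd1-/- and 4.20 CPM in axin2-/-, against 2.28 CPM in nkd1-/-, 1.82 CPM in TL and 1.63 CPM in Tu. Its gap of 0.78 was far smaller than the 3.61 of cacna1ha beside it. mcama and CLIP2, a linker of microtubules, stood 14 genes apart on chromosome 5 and were both higher. The 2 pairs of opposite direction were those of si:ch211-222n22.1, which was higher, with cyp3c1 and cyp3c2, which were lower and stood 6 and 8 genes from it.

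Embryos that lacked axin2 were compared with and without nkd1, by a test between axin2-/-;nkd1-/- and axin2-/-. The axin2-/- line was made in TL and the double mutants came from its cross with a line made in Tu. Loss of nkd1 and strain therefore cannot be told apart in this comparison. Of the 73 genes, 12 were called at an adjusted p under 0.05, 10 higher and 2 lower in the double mutant, or 16.4%. Over all genes tested the share was 38.6%, with 19.0% higher and 19.5% lower. The rule holds this difference below the gap, so the lower share is not a finding. Among the 43 higher genes, rln3a rose further in the double mutant by 1.68 ± 0.27 (log2 ± SE, adjusted p = 0.000576), il12rb2l by 1.41 ± 0.20 (adjusted p = 4.65e-05) and mcama by 1.15 ± 0.26 (adjusted p = 0.00245). For these 3 the shift away from the other groups was thus the larger in the double mutant, in 3 of 3 libraries. Among the 30 lower genes, cyp3c2 was higher in the double mutant by 3.06 ± 0.83 (adjusted p = 0.00807) and tnfsf13b by 1.75 ± 0.45 (adjusted p = 0.00587), so both lay nearer to the other groups there. The cyp3c2 difference depends on 1 axin2-/- library with counts, since the other two were at 0. The fitted value ran from 2.37 to 8.08 when 1 library was left out; the highest came without axin2-/- replicate 2, when that group was at 0 and no fold can be given. A fit to the pair of groups alone did not call it (adjusted p = 0.0689). KCNK10 was higher by 1.78 ± 0.56 (adjusted p = 0.0198), a call lost without axin2-/- replicate 2 or 3 or double-mutant replicate 1 or 3 (adjusted p up to 0.0692). herc56.4 was higher by 1.51 ± 0.56 (adjusted p = 0.0401), a call lost without any one axin2-/- library or double-mutant replicate 1, and without the last the difference was 0.23. The unnamed gene ENSDARG00000104434 was lower by 0.49 ± 0.14 (adjusted p = 0.0126) and si:dkey-108k21.17 by 0.67 ± 0.25 (adjusted p = 0.0460). The si:dkey-108k21.17 call was lost without axin2-/- replicate 2 or 3 or any double-mutant library (adjusted p up to 0.207). Over the leave-one-out fits, 6 of the 12 calls were kept in all, those of rln3a, il12rb2l, mcama, cyp3c2, tnfsf13b and ENSDARG00000104434. The number called was lowest, 7, without axin2-/- replicate 2.

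Markers of other cell types also differed in these comparisons. Between axin2-/-;nkd1-/- and axin2-/-, 19.0% of all genes tested were called higher and 19.5% lower. In that comparison 6 of 15 enveloping layer markers were higher and 2 lower. Their summed level was 11617 to 12179 CPM in axin2-/-;nkd1-/-, against 9042 to 10696 CPM in axin2-/-. Of 14 yolk syncytial layer markers 7 were higher and 1 lower, with sums of 1500 to 1618 CPM in axin2-/-;nkd1-/-, against 1100 to 1267 CPM in axin2-/-. Of 13 germ cell markers 4 were higher and 4 lower, with sums of 792 to 866 CPM in axin2-/-;nkd1-/-, against 1070 to 1305 CPM in axin2-/-. Between nkd1-/- and Tu the sums of the enveloping layer and germ cell markers stood apart, both higher in nkd1-/-, and between TL and Tu those of the germ cell markers, higher in TL. Called between nkd1-/- and Tu were 4 enveloping layer markers higher and 1 lower, and 4 germ cell markers higher and 0 lower (all genes 14.4% and 14.8%). Called between TL and Tu were 0 enveloping layer markers higher and 4 lower, and 3 germ cell markers higher and 0 lower (all genes 15.3% and 15.7%). A sum is led by its most abundant markers, so it need not follow the calls. Maternal transcripts overlapped in all 3 comparisons. No marker of these lists was at 0 in any library except apoea, a yolk syncytial layer apolipoprotein gene, which was at 0 in 1 nkd1-/- and 1 Tu library. The part of these shifts in the results on the 73 genes was not tested.

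**Figure D5:**
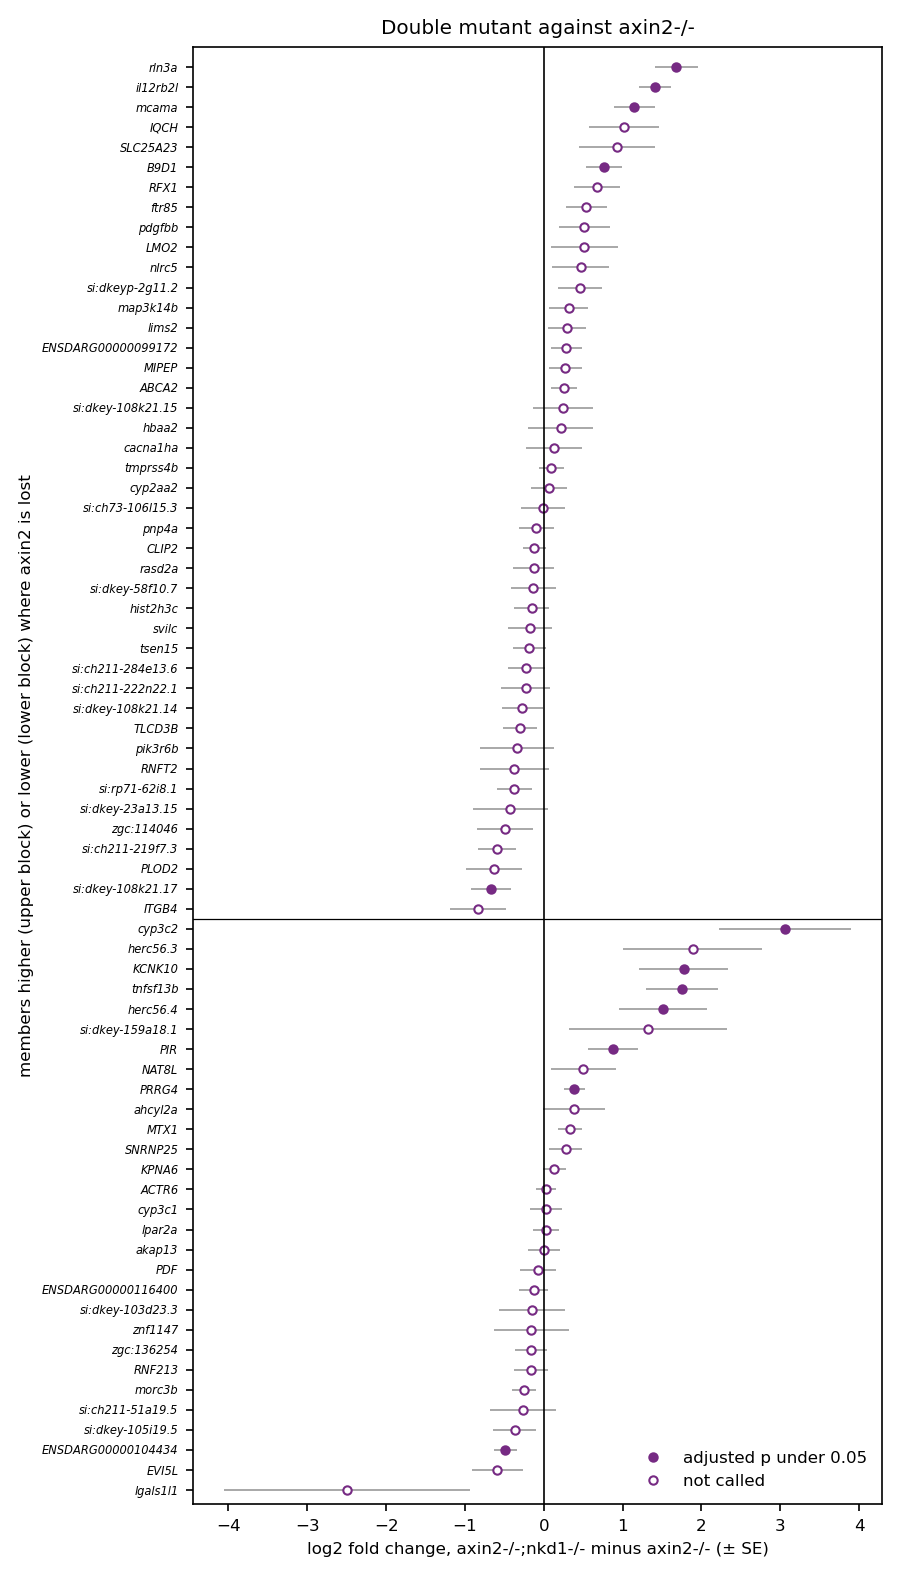
log2 fold change (x axis, ± SE) between axin2-/-;nkd1-/- and axin2-/- embryos for 72 of the 73 genes, with the 43 higher genes above the line and 29 of the 30 lower genes below it. Filled points mark the 12 genes called, of which 10 lie right of 0.

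Whether the genes also moved with nkd1 where axin2 is intact was tested between nkd1-/- and Tu. This called 14 of 73, 5 higher and 9 lower in nkd1-/-, or 19.2%, beside 29.3% of all genes tested (14.4% higher and 14.8% lower). The rule limits the differences among nkd1-/-, TL and Tu, so the lower share is not a finding. Of the 9 that fell, 8 belong to the 30 genes lower without axin2 and 1 to the 43 higher genes. The falls of RNF213, PRRG4, PIR, zgc:136254 and ENSDARG00000116400 were each called in only 2 of 6 leave-one-out fits. The rule used the levels of both groups, so no shared response is read from these counts. The largest falls were those of si:dkey-159a18.1, by 2.52 ± 0.48 (adjusted p = 0.000822), znf1147, by 2.34 ± 0.37 (adjusted p = 0.000157), and tnfsf13b, by 1.72 ± 0.34 (adjusted p = 0.00124). mcama, a gene of the higher side, fell by 1.71 ± 0.38 (adjusted p = 0.00302), the opposite of its direction without axin2. si:ch211-219f7.3 rose by 1.58 ± 0.29 (adjusted p = 0.000579) and CLIP2 by 0.63 ± 0.15 (adjusted p = 0.00390). These 6 calls were kept when any one library was left out. The same Tu libraries serve the comparison of TL with Tu. There, mcama (-0.96), si:dkey-159a18.1 (-1.48), znf1147 (-1.04) and si:ch211-219f7.3 (1.96) were called in the same direction, as were RNF213, PRRG4, zgc:136254 and herc56.3. tnfsf13b and CLIP2 were not called there. For genes called in both comparisons, a change with nkd1 and a departure of the Tu libraries cannot be told apart. pik3r6b was called higher (adjusted p = 0.0113), but all 3 Tu libraries were under the floor of 3 counts, so no fold is given, and the call was lost without nkd1-/- replicate 2 or Tu replicate 1 (adjusted p up to 0.0553). herc56.3 was higher by 1.61 ± 0.58 (adjusted p = 0.0444), a call lost without any one of the 6 libraries (adjusted p 0.0638 to 0.124). The number called was 6 without Tu replicate 1.

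The unmutated strains were compared in the same way. TL against Tu called 20 of 73 genes, 10 higher and 10 lower in TL, or 27.4%, beside 31.1% of all genes tested (15.3% higher and 15.7% lower). The rule limits this difference too, so the share is not a finding. herc56.3 was higher in TL by 2.99 ± 0.60 (adjusted p = 0.00111), si:ch211-219f7.3 by 1.96 ± 0.29 (adjusted p = 6.14e-05) and svilc, a member of the supervillin family of actin-binding proteins, by 1.80 ± 0.32 (adjusted p = 0.000407). si:dkeyp-2g11.2 fell by 1.18 ± 0.29 (adjusted p = 0.00551) and cyp2aa2, a cytochrome P450 enzyme, by 1.17 ± 0.23 (adjusted p = 0.00107). These 5 held when any one library was left out. The other two named falls did not: that of si:dkey-159a18.1, by 1.48 ± 0.46 (adjusted p = 0.0205), was lost without TL replicate 1 or 3 or Tu replicate 3 (adjusted p up to 0.135), and that of nlrc5, by 1.42 ± 0.42 (adjusted p = 0.0163), without TL replicate 2 or 3 (adjusted p up to 0.0568). Without TL replicate 3 the number called was 8. In all, 40 of the 73 genes were called in none of the 3 comparisons. The share over all genes tested was not counted, and the rule limits these differences. Nothing is therefore read from this number.

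The step between the sides was set side by side for both genetic settings. The settings differ in strain as well as in nkd1, so strain and loss of nkd1 cannot be told apart. The double mutants came from a cross of lines made in TL and Tu, and nkd1-/- was made in Tu. Between axin2-/-;nkd1-/- and nkd1-/-, loss of axin2 and strain therefore cannot be told apart either. The difference of axin2-/-;nkd1-/- from nkd1-/- had a median of 1.47 over the 43 higher and -1.31 over the 30 lower genes, and that of axin2-/- from TL a median of 1.74 and -1.32 (fitted log2 fold changes, with medians of -0.01 and 0.01 over all genes). cacna1ha differed by 5.05 ± 0.44 in the first and 4.82 ± 0.44 in the second comparison, rasd2a by 2.53 ± 0.28 and 2.38 ± 0.28, and lpar2a by -1.57 ± 0.16 and -2.09 ± 0.17. The difference between the comparisons was tested as an interaction, a test added after the data were seen. It equals the difference of axin2-/-;nkd1-/- from axin2-/- minus that of nkd1-/- from TL, and the rule limits both, so its p-values are not free of the choice of genes. It called 11 of the 73 genes, 9 with a positive and 2 with a negative value, or 15.1%, beside 19.2% of all genes tested (9.65% positive and 9.54% negative). The members were thus called no more often than other genes, and the count is not a finding about them. il12rb2l, mcama and svilc had the larger step beside nkd1-/-. svilc, for example, differed by 4.28 ± 0.35 between axin2-/-;nkd1-/- and nkd1-/- and by 1.74 ± 0.29 between axin2-/- and TL, an interaction of 2.54 ± 0.44 (adjusted p = 0.000735). Its levels in axin2-/-;nkd1-/- and axin2-/- were not called different (-0.18 ± 0.28, adjusted p = 0.650). Among the groups with axin2 it averaged 2.47 CPM in TL, against 0.364 CPM in nkd1-/- and 0.688 CPM in Tu. tnfsf13b had the larger step beside TL, with -2.06 ± 0.37 for axin2-/-;nkd1-/- against nkd1-/- and -5.00 ± 0.44 for axin2-/- against TL, an interaction of 2.94 ± 0.57 (adjusted p = 0.00171).

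None of the 73 genes was in the lists of Wnt components or Wnt targets, nor in those of organizer genes, p53 targets, marker genes of the enveloping layer, the yolk syncytial layer and germ cells, maternal transcripts, or immune genes. These lists are short beside the number of genes tested, so nothing is read from that, and the immune list does not hold nlrc5 or tnfsf13b. Only listed genes matched by name and tested were checked. These were, for example, 26 of 48 Wnt components, 22 of 31 Wnt targets, 17 of 24 p53 targets and 13 of 25 immune genes. Between axin2-/- and TL, 10.6% of all genes were called higher and 10.6% lower, and between axin2-/-;nkd1-/- and nkd1-/- 6.06% and 5.49%. The second comparison mixes loss of axin2 with strain, since the double mutants came from a cross of lines made in TL and Tu. Of 22 Wnt target genes tested, 3 were higher and 2 lower in axin2-/- than in TL, and 0 were higher and 2 lower in axin2-/-;nkd1-/- than in nkd1-/- (medians -0.17 and 0.03). None was called in the same direction in both. Those called between axin2-/- and TL were sp5l, dkk1b and axin2, the targeted gene itself, all higher, and vent and tcf7, both lower. The count between axin2-/- and TL was 2 without axin2-/- replicate 2, and between axin2-/-;nkd1-/- and nkd1-/- it was 0 without double-mutant replicate 2. Of 26 Wnt components, 3 were higher (wnt11f2, axin2 and dkk1b) and 1 lower (tcf7) in the first comparison. axin2, dkk1b and tcf7 stand in both lists, so these counts are not independent. In the second comparison, 0 components were called with edgeR and 0 with DESeq2. There 3 had an unadjusted p under 0.05 in edgeR, a share that was not counted over all genes tested. Summed levels of the lists for the enveloping layer, the yolk syncytial layer, germ cells and maternal transcripts overlapped between the 6 libraries without axin2 and the other 9: those for the enveloping layer ran from 9042 to 12179 CPM in the libraries without axin2, and from 8442 to 14537 CPM in the rest.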

How the data were processed

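The authors deposited one table of whole-number counts per Ensembl gene ID, not normalized, with a column for each of the 15 samples. The submitters' processing notes name GRCz11 and edgeR 3.30.3, and the aligner, the counting tool and the use of strand are not given in the sources used here. Of 32520 IDs, 29201 had a name in the reference name table. CPM was computed from column totals. Genes passing filterByExpr (minimum count 10, minimum total count 15), 21614 with all 73 described here among them, were fitted over all 5 groups with edgeR 4.0.16 in R 4.3.3 (TMM, quasi-likelihood test), with Benjamini-Hochberg adjustment over all genes tested and calls under 0.05. DESeq2 1.42.0 was an alternative. The code was tested on simulated data.

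The genes and lists were chosen with earlier results of these data known. Named are the 12 largest gaps in each direction, the genes next to the threshold, the 3 largest called changes per comparison and direction, axin2 and nkd1. Others were named for their role or position after their values were seen. Gene names were matched to RefSeq positions without regard to capitals, and 4 further genes were placed through the name of their clone, a step added after the data were seen. Promoter sequences were not examined here. No 2 libraries agreed within counting noise (chi-square per degree of freedom 12.3 to 67.2 within groups). Results for 1 of the 73 genes are not reported here, and the figures leave it out, while the counts include it.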

Additional observations from a re-analysis of the deposited data

Results flagged for a closer look

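For 11 of the 73 genes the step between embryos without and with axin2 differed between the nkd1-/- and the unmutated setting. This is 15.1% of them, beside 19.2% of all genes tested, so the count is no feature of these genes. The settings also differ in strain, since nkd1-/- was made in Tu and the unmutated setting is TL. Loss of nkd1 and strain therefore cannot be told apart here. The step beside nkd1-/- also mixes loss of axin2 with strain, since the double mutants came from a cross of lines made in TL and Tu. The value tested was the log2 fold change of axin2-/-;nkd1-/- against nkd1-/- minus that of axin2-/- against TL, with adjusted p under 0.05 in edgeR's quasi-likelihood test. Among genes higher without axin2, svilc had an interaction of 2.54, mcama of 1.89, il12rb2l of 1.68 and RFX1 of 1.35, which means larger steps beside nkd1-/-. CLIP2, at -0.60, had the larger step beside TL. Among genes lower without axin2, herc56.3 had 3.26, herc56.4 3.02, tnfsf13b 2.94, ahcyl2a, a relative of adenosylhomocysteinase, 1.84 and PIR, a nuclear iron-binding protein, 1.80, which means larger steps beside TL. ENSDARG00000104434, at -0.89, had the larger step beside nkd1-/-.

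The 7 calls of il12rb2l, mcama, svilc, tnfsf13b, herc56.4, PIR and ENSDARG00000104434 were kept in all 12 fits that left out a library. The herc56.3 value was 0.26 (adjusted p = 0.893) without double-mutant replicate 1, and the call was also lost without axin2-/- replicate 1 or 3, nkd1-/- replicate 3 or TL replicate 1 or 2. The ahcyl2a call was lost without axin2-/- replicate 3, double-mutant replicate 1 or 2 or TL replicate 2 (adjusted p up to 0.0614). The RFX1 call was kept in 3 of the 12 fits and the CLIP2 call in 2 of them. The causes were not tested.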

How the results depend on the processing

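The number of higher genes, 43, was 18 with a gap of at least 1 and 26 with a minimum of 5 CPM. The number of lower genes, 30, was 13 with a gap of at least 1 and 18 with a pseudocount of 2, which shrinks differences at low levels. The size of the gap was followed for 26 named genes. With TMM-scaled library sizes or a pseudocount of 2, 21 of these gaps moved by at least the gene's SD within a group. None changed direction. Leaving out 1 library gave 42 to 54 higher and 25 to 47 lower genes, and 47 were found without nkd1-/- replicate 2. Leave-one-out calls numbered 7 to 11 for axin2-/-;nkd1-/- against axin2-/-, 6 to 18 for nkd1-/- against Tu, 8 to 17 for TL against Tu and 7 to 12 for the interaction. With DESeq2 the calls were 14, 16, 19 and 13. Calls of single genes, 57 in all, kept their direction under every setting run, and 15 of them passed the threshold no longer under at least 1 of the settings other than leaving out a library. Deviations of same-numbered samples from their group means had a mean correlation of 0.0546, from -0.157 to 0.311. Samples of different number were not compared, so whether the numbers pair the samples was not settled. A replicate block in the model gave 11, 14, 20 and 10 calls. With 3 samples a group and 30 of the 43 higher genes under 10 CPM, depth limits what can be said of single genes near 0. By name match alone, 18 of 56 placed genes lay on the chromosome of axin2.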

Other observations

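Genes outside the 73 were counted by list in axin2-/- against TL and in axin2-/-;nkd1-/- against nkd1-/-. Of all genes tested, 10.6% were called higher and 10.6% lower in the first of these comparisons. In the second the shares were 6.06% and 5.49%. Counts near these shares are not read as results about a list. The difference between these comparisons was not tested for the lists. In the second, loss of axin2 and strain cannot be told apart, since the double mutants came from a cross of lines made in TL and Tu. Of 17 p53 target genes tested, 7 were higher and 0 lower in axin2-/- than in TL, among them casp8 (a caspase that starts cell death) by 1.54 and cdkn1a (a cell cycle inhibitor) by 1.52, and the count was 4 without TL replicate 2. Between axin2-/-;nkd1-/- and nkd1-/- 0 were called with edgeR and 0 with DESeq2. There 5 had an unadjusted p under 0.05 in edgeR, a share that was not counted over all genes tested. The median log2 fold change of the p53 list was -0.31 there, the opposite sign to the 0.45 between axin2-/- and TL. Of 13 immune genes, 4 were higher and 3 lower in axin2-/- than in TL, and 1 was higher and 3 lower in axin2-/-;nkd1-/- than in nkd1-/-. The interferon-induced gene isg15 was higher by 2.70 in the first comparison and lower by 1.81 in the second (adjusted p = 0.000122 and 0.00479).

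Of 14 yolk syncytial layer markers, 3 were higher and 1 lower in either comparison. slc40a1, the iron exporter ferroportin, was the gene of all 9 lists called in the same direction in both, higher by 1.35 ± 0.45 in axin2-/- than in TL and by 1.99 ± 0.47 in axin2-/-;nkd1-/- than in nkd1-/- (adjusted p = 0.0413 and 0.00964). The first call was lost without TL replicate 1, TL replicate 3 or axin2-/- replicate 1, and without the last the difference was 0.65 (adjusted p = 0.316), and the second without double-mutant replicate 2 (adjusted p = 0.0592). The organizer list held 21 genes tested, and it includes genes of the ventral side such as szl and bmp4. In the first comparison 3 were higher, gsc, chrd and lft1, and 2 were lower, szl and bmp4. In the second 2 were higher, admp and szl, so szl changed direction. Of 15 enveloping layer markers, 2 were higher in the first and 0 in the second with edgeR and with DESeq2. In the second, 3 had an unadjusted p under 0.05 in edgeR, a share that was not counted over all genes tested. Of 13 germ cell markers, 1 was higher and 3 lower in the first and 1 higher and 2 lower in the second. Of 22 maternal transcripts, 2 were higher and 3 lower in the first and 1 was lower in the second. Leaving out 1 library moved these counts by over 1.5 times for several lists: organizer genes numbered 2 without TL replicate 1 in the first comparison, and yolk syncytial layer markers numbered 2 without double-mutant replicate 2 in the second.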
